A study of Mus musculus with 6 samples.

Results

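Wnt response and R-spondin receptor genes were followed in mouse salivary gland organoids (mSGOs) between day 5 and day 7 of culture. The group was a fixed list of 10 genes among the 47643 gene identifiers counted in each library. It held Axin2, Nkd1, Znrf3 and Rnf43, the receptors Lgr4, Lgr5 and Lgr6, and the ligands Wnt4, Wnt7b and Wnt10a. The genes were listed by name, with earlier results of these data known.

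The organoids were grown in Matrigel from submandibular gland cells of female C57BL/6 mice aged 8 to 12 weeks. All organoids were untreated and non-irradiated, and no genetic modification was named. Cultures from 3 mice were collected at day 5 (n = 3) and at day 7 (n = 3), and a mouse number marked the same animal on both days. Both days shared 1 medium, called WRY, which contained EGF, FGF2, the N2 supplement, insulin, dexamethasone, the ROCK inhibitor Y27632 and conditioned media that supplied R-spondin1 (10% of the volume) and Wnt3a (50%). There was therefore no library without added Wnt and R-spondin, and the level of a gene could only be compared between days. Polyadenylated RNA was read from its 3′ end with the QuantSeq kit, which gives about 1 tag per transcript whatever its length. Levels are given as CPM, counts divided by the library size in units of 1000000 after scaling by the trimmed mean of M values (TMM), and were compared between genes without dividing by length.

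A Wnt protein binds a Frizzled receptor and an LRP5 or LRP6 co-receptor, after which β-catenin escapes degradation and works with TCF/LEF factors in the nucleus. Axin2 and Nkd1 are response genes that feed back on the pathway inside the cell. The membrane ubiquitin ligases ZNRF3 and RNF43 remove Frizzled from the surface, and R-spondins bound to LGR4, LGR5 or LGR6 hold these ligases back. In salivary gland cultures, Wnt and R-spondin are supplied to keep progenitor cells growing.

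Library totals in genes lay between 1918198 and 2837397 counts, with 14024 to 14856 genes detected. A count of 3, which is the upper limit that a count of 0 allows, corresponded to between 1.06 and 1.56 CPM, for counting error only. Between-mouse variation was larger at day 7, with a biological coefficient of variation of 0.292 against 0.0903 at day 5. Entries that named no gene took 13.7 to 14.4% of reads at day 5 and 9.12 to 9.74% at day 7, and the part of this difference in the results was not tested. Fibroblast markers summed to 2.78 to 4.95 CPM over all libraries, with Col1a2, Col3a1, Lum and Dpt at 0, whereas basal duct markers summed to between 11501 and 18677 CPM. Acinar markers summed to 7.03 to 35.7 CPM, mostly through the water channel gene Aqp5, which had counts in every library (5.02 to 9.73 CPM at day 5 and 9.97 to 24.0 CPM at day 7). Pip reached at most 10.3 CPM and Amy1 2.89 CPM, Bhlha15 and Smgc stayed at or under 0.490 CPM, and Dcpp1, Dcpp2 and Prol1 were at 0.

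Short letter strings of the kind that TCF/LEF factors recognise were looked up around the start of each gene. The letters CTTTGAA or CTTTGAT and CTTTGTA or CTTTGTT were searched on both strands within 1000 bases of the start in GRCm39, and capitals mark the match. The search over this distance was chosen after values were seen. Axin2 held 4 matches, a number reached by 8.25% of 21762 protein-coding genes. They are shown because Axin2 is the pathway's usual readout and because it passed the test between days. The matches lay 84, 447, 889 and 909 bases downstream of the start, the nearest in an exon.
Axin2 site 1, chr11:108811245-108811267, plus strand: cggctgcgCTTTGATaaggtcct
Axin2 site 2, chr11:108811608-108811630, plus strand: gctcgcgcCTTTGAAgtgcacag
Axin2 site 3, chr11:108812050-108812072, plus strand: ccggcgcgCTTTGATgtgcgggg
Axin2 site 4, chr11:108812070-108812092, plus strand: gggcggcgCTTTGAAgttggcag

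Among the other members, Rnf43 held 3 matches (20.7% of genes held at least as many) and Nkd1 held 2 (44.5%), although both were scarce in the organoids. Lgr5, Znrf3 and Wnt10a held 1 match each, and 75.7% of genes held at least 1. Lgr4, Lgr6, Wnt4 and Wnt7b held none within this distance. The sites nearest to the start in Nkd1 and Lgr5 are shown as examples of the same letters at genes with few or no counts.
Nkd1, 9 bases downstream, in an exon, chr8:89247891-89247913, plus strand: cgcctcgcCTTTGATgggccgct
Lgr5, 512 bases upstream, chr10:115424183-115424205, minus strand: ctttgaggCTTTGATagttgagc
These letters are frequent, and a match describes the sequence and not a bound site. In the shorter RefSeq promoter windows of 300 bases (GRCm38.p6), which covered Axin2, Lgr4, Lgr6, Rnf43, Nkd1 and Wnt4, 0 of 7 windows held a match, against 16.9% of 32851 windows. These windows run from 250 bases upstream to 50 bases downstream of RefSeq starts. They were the planned search, and the search within 1000 bases was added later. In GRCm39 the RefSeq start lay 6371 bases from the start used above for Nkd1. For 1 of the Rnf43 windows it lay 37175 bases away. The windows cover none of the sites printed here for Axin2 and Nkd1 and none of the Rnf43 matches, so they cannot speak to those matches.

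**Figure D1:**
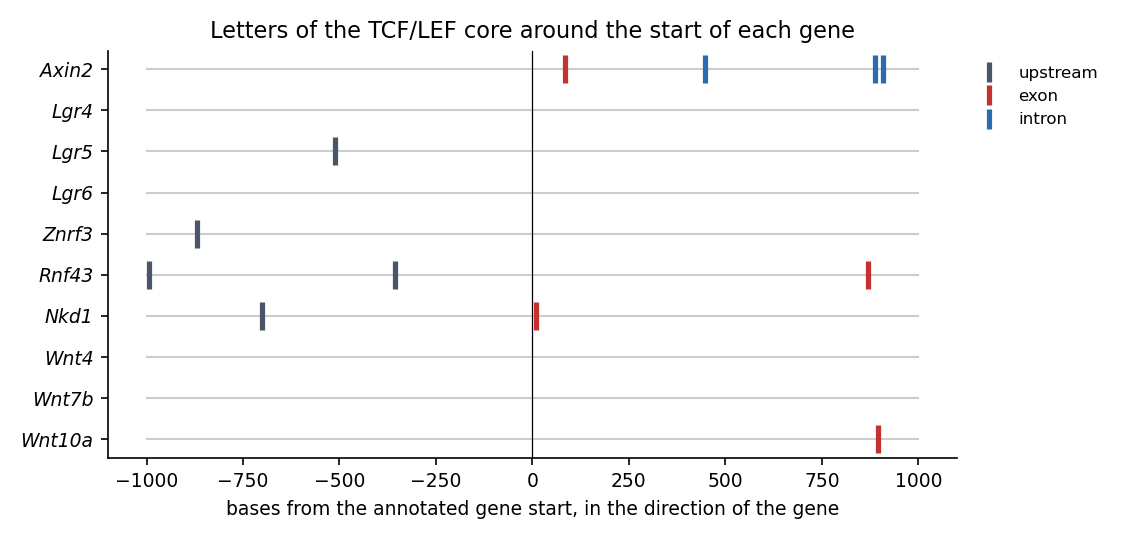
Matches to the 4 TCF/LEF letter strings within 1000 bases of each member's start, by distance in bases from the start and coloured by place (upstream grey, exon red, intron blue). Axin2 held 4 matches, all downstream, while Lgr4, Lgr6, Wnt4 and Wnt7b held 0.

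Of the 10 members, 2 were higher at day 7 by the study's limits (adjusted p under 0.05 and absolute log2 fold change over 0.6), namely Axin2 and Wnt4, and 0 were lower. Over all 15792 genes tested, 12.0% passed, 7.22% as higher and 4.82% as lower, and with 10 genes a count of 2 is not set apart from this background. All 10 members passed the low-count filter, and 7 of them averaged 5 CPM or more. The median log2 fold change was 0.066 over the members and -0.0073 over all genes tested. The members' median includes Nkd1, which had 0 counts at day 5 and at most 1 per library at day 7. No difference is read from the 2 medians. In bulk organoids, fewer cells of a type and less RNA per cell cannot be told apart.

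**Figure D2:**
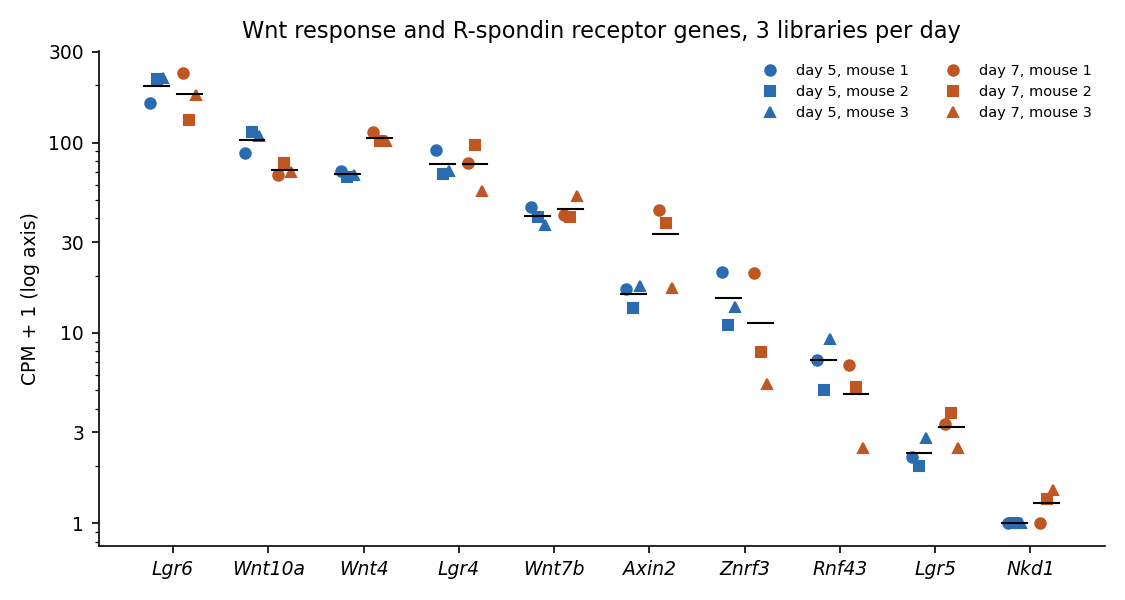
Level of each member as CPM + 1 on a log axis, by mouse, at day 5 (blue) and day 7 (orange), with the mean of 3 libraries as a horizontal line. Wnt4 lay above and Wnt10a below its day 5 values in every mouse, and Lgr5 and Nkd1 lay near or under the level of 3 counts.

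Axin2, the scaffold of the β-catenin destruction complex that is itself a Wnt target, lies on chromosome 11 from 108811169 to 108841609 on the plus strand. Its levels in mice 1, 2 and 3 were 16.1, 12.6 and 16.6 CPM at day 5 and 43.3, 36.8 and 16.2 CPM at day 7. The rise was present in mice 1 and 2 and absent in mouse 3, whose day 7 value sat inside the day 5 range. The mean was 15.1 ± 2.19 CPM at day 5 and 32.1 ± 14.2 CPM at day 7 (SD, n = 3). The fitted log2 fold change was 1.09 ± 0.32 (SE), and its edgeR adjusted p was 0.0300. Within mice the log2 differences were 1.39, 1.49 and -0.035. Omission of day 7 mouse 3 raised the log2 fold change to 1.39, whereas the adjusted p rose to 0.109, 0.165 and 0.102 without the day 5 library of mouse 1, 2 or 3, and to 0.0838 and 0.133 without day 7 mouse 1 or 2. The call also rested on how low genes were filtered, with an adjusted p of 0.0521 under edgeR's own filter.

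The ratio of Axin2 to Axin1, its constitutive relative in the same complex, needs no scaling between libraries. Day 5 ratios were 0.500, 0.424 and 0.484, and day 7 ratios were 1.53, 1.09 and 0.611. Axin1 itself measured 32.2, 29.6 and 34.2 CPM at day 5 and 28.4, 33.7 and 26.4 CPM at day 7. All 3 day 7 ratios were above the day 5 range, but in mouse 3 the higher ratio came with a lower Axin1 and not with a higher Axin2. An exact two-sided permutation of the 6 libraries gave p = 0.10, the smallest that 3 against 3 allows, and 0.15 after adjustment over the 3 ratios tested, which were chosen after their values were seen. Exchanging days within mice gave an exact permutation p of 0.25, the smallest that 3 pairs allow. Nkd1, a Dishevelled-binding feedback inhibitor on chromosome 8 (89247890 to 89324577), had 0 counts in every day 5 library and 0, 1 and 1 counts at day 7. It was under the level of 3 counts in all libraries, so no fold change is given. Its paralogue Nkd2, named after its values were seen, averaged 50.4 ± 9.32 CPM at day 5 and 59.1 ± 22.1 CPM at day 7 (SD, n = 3).

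Znrf3 and Rnf43, the ligases on which R-spondins act, did not pass the test. They averaged 12.2 and 4.98 CPM, at ranks 7647 and 9644 among the 15792 genes tested. Znrf3 (chromosome 11, 5226324 to 5394939) measured 19.8, 10.0 and 12.6 CPM at day 5 and 19.6, 6.94 and 4.41 CPM at day 7. It was lower at day 7 in each mouse, by almost nothing in mouse 1 and most in mouse 3, and the days overlapped. The log2 fold change was -0.44 ± 0.42 (adjusted p = 0.550). Without day 7 mouse 1 it was -1.29 with an adjusted p of 0.0281, so the call for this gene rested on that library. Rnf43 (chromosome 11, 87553548 to 87626377) measured 6.19, 4.02 and 8.29 CPM at day 5 and 5.75, 4.17 and 1.47 CPM at day 7. Its counts were 15, 8 and 23 at day 5 and 15, 12 and 3 at day 7. The largest log2 difference within a mouse, -1.99 in mouse 3, rests on those 3 counts, which are near the detection limit. The fitted log2 fold change was -0.67 ± 0.46 (adjusted p = 0.375). Of the counts of both ligases, Znrf3 took 69.3% ± 8.13 at day 5, beside 71.6% ± 7.95 at day 7 (SD, n = 3).

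The R-spondin receptors differed widely in level, and 0 of the 3 passed the test between days. Lgr6 was the most abundant of all members, at rank 809 among the genes tested. On chromosome 1 (134911039 to 135033100, minus strand), it measured 160, 215 and 217 CPM at day 5 and 230, 130 and 176 CPM at day 7. Mouse 1 was higher and mice 2 and 3 lower at day 7, and the days overlapped. The mean was 198 ± 32.1 and 179 ± 50.0 CPM (SD, n = 3), with a log2 fold change of -0.14 ± 0.22 and an adjusted p of 0.739. Lgr4 (chromosome 2, 109747839 to 109844609), the receptor found in most epithelia, measured 90.3, 67.3 and 69.9 CPM at day 5 and 77.5, 95.5 and 54.8 CPM at day 7. Its mean was 75.8 ± 12.6 and 75.9 ± 20.4 CPM, and its log2 fold change of 0.0063 ± 0.23 (adjusted p = 0.990) changed sign with the scaling of libraries.

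Lgr5, the stem cell marker of intestine and several other epithelia, was close to the detection limit (chromosome 10, 115286216 to 115423685). It had 3, 2 and 5 counts at day 5 and 6, 8 and 3 counts at day 7, or 1.24, 1.00 and 1.80 CPM against 2.30, 2.78 and 1.47 CPM. The days overlapped, and a difference was not detectable at this depth (log2 fold change 0.67 ± 0.62, adjusted p = 0.531). Lgr6 took 71.6% ± 6.86 of the counts of the 3 receptors at day 5 and 69.0% ± 10.4 at day 7, and Lgr4 took 27.9% ± 6.86 and 30.1% ± 10.1 (SD, n = 3). The share of Lgr5 was 0.490% ± 0.134 and 0.863% ± 0.310, with Wilson 95% intervals reaching from 0.0973% to 2.38% over the 6 libraries. The ratio of Lgr6 to Lgr4 was 1.78, 3.19 and 3.11 at day 5 and 2.97, 1.36 and 3.21 at day 7, which overlapped (exact permutation p = 0.70). Lgr6 exceeded Lgr4 in 6 of 6 libraries.

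**Figure D3:**
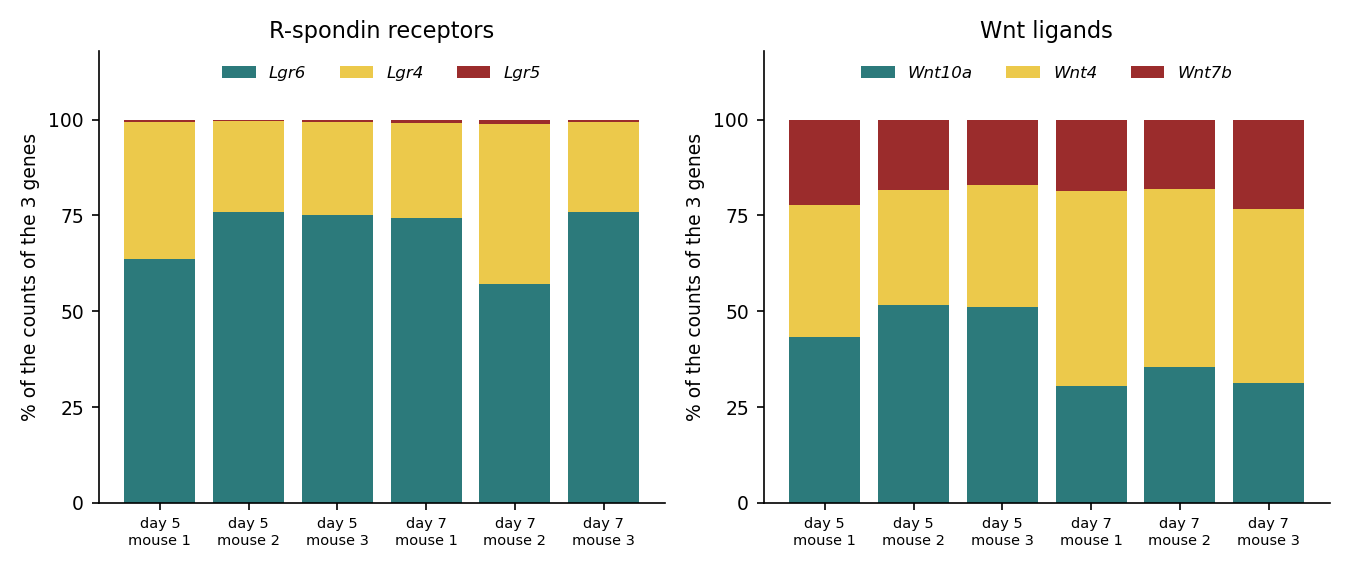
Share of counts in percent taken by each R-spondin receptor and by each of the 3 ligands, per library, at day 5 and day 7. Lgr6 held most receptor counts on both days, while Wnt4 passed Wnt10a between day 5 and day 7 in all 3 mice.

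Of the ligands, Wnt4 was higher at day 7, Wnt10a had lower values that missed the test, and Wnt7b showed no common direction. Wnt4, which acts in gland branching and differentiation, lies on chromosome 4 (137004373 to 137027037, plus strand). It measured 70.1, 64.8 and 66.7 CPM at day 5 and 112, 101 and 101 CPM at day 7. Every day 7 library was above every day 5 library, and the within-mouse log2 differences were close to each other at 0.67, 0.63 and 0.59. Mean levels were 67.2 ± 2.71 CPM before and 105 ± 6.71 CPM after (SD, n = 3). The fitted log2 fold change of 0.64 ± 0.19 had an adjusted p of 0.0333. The fold change sat close to the limit of 0.6, and the call was lost on scaling to library totals alone, where it was 0.55 (adjusted p = 0.0710). It was also lost without any 1 of the day 5 libraries (adjusted p = 0.118, 0.159 and 0.156 without mouse 1, 2 and 3), without day 7 mouse 2 (0.0653), and without day 7 mouse 1, where the fold change fell to 0.58.

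Wnt10a, a ligand of ectodermal appendages and stratified epithelium (chromosome 1, 74830675 to 74844355), went the other way. It measured 87.4, 112 and 107 CPM at day 5 and 66.7, 77.4 and 69.0 CPM at day 7. All day 7 libraries were below all day 5 libraries, and the gene was lower in 3 of 3 mice. Mean levels were 102 ± 12.9 CPM and 71.1 ± 5.62 CPM (SD, n = 3), and the log2 fold change of -0.52 ± 0.20 missed both limits (adjusted p = 0.0924). Wnt4 and Wnt10a were the 2 members whose days did not overlap, against 30.9% of all genes tested. Wnt7b (chromosome 15, 85419638 to 85466674) measured 45.0, 39.7 and 35.7 CPM at day 5 and 40.7, 39.6 and 51.4 CPM at day 7. It was lower in mice 1 and 2 and higher in mouse 3, and its log2 fold change was 0.13 ± 0.22 (adjusted p = 0.781).

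Among the counts of these 3 ligands, the share of Wnt4 was 32.2% ± 2.36 at day 5 and 47.7% ± 3.03 at day 7, and the share of Wnt10a was 48.7% ± 4.75 and 32.4% ± 2.79 (SD, n = 3). Wnt7b took 19.2% ± 2.67 and 20.0% ± 2.83. The ratio of Wnt4 to Wnt10a was 0.802, 0.578 and 0.625 at day 5 and 1.68, 1.30 and 1.46 at day 7. Wnt10a was therefore ahead in all day 5 libraries and Wnt4 in all day 7 libraries, a reading that no scaling between libraries can change. The mean log2 ratio was 1.15 higher at day 7, with an exact two-sided permutation p of 0.10 over the 6 libraries, the smallest possible with 3 against 3, and 0.15 adjusted over the 3 ratios. Within mice the exact permutation p was 0.25, the smallest that 3 pairs allow, with the ratio higher at day 7 in 3 of 3 mice. This pair was chosen after its values were seen, and the days of each gene did not overlap, in opposite directions. The ratio therefore had to reach both smallest p-values, which add no support beyond the levels themselves.

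**Figure D4:**
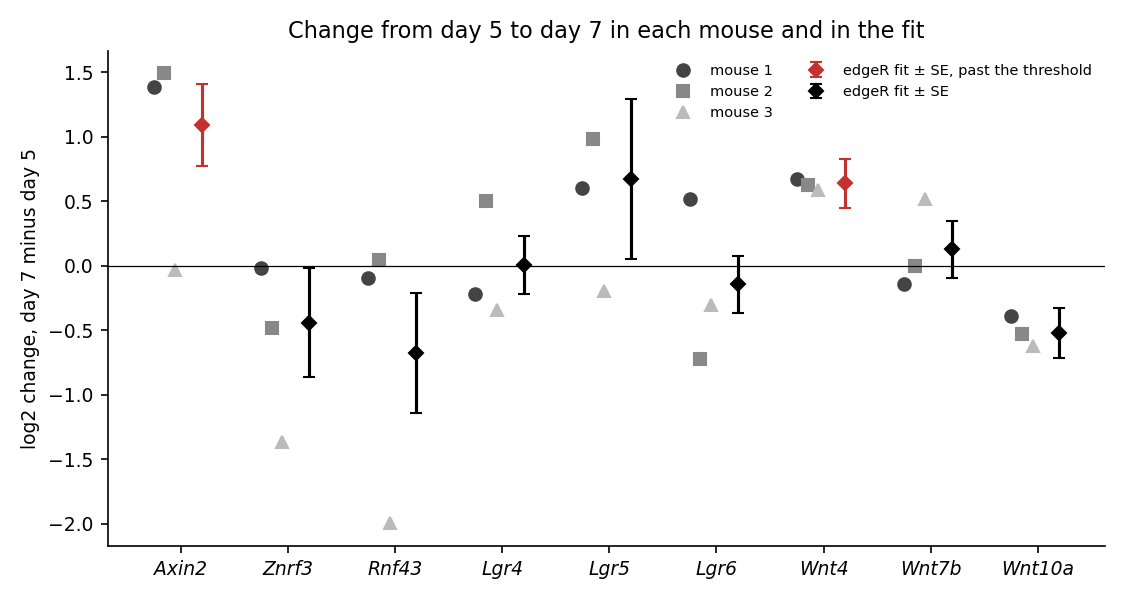
Log2 fold change from day 5 to day 7 for 9 members (Nkd1 is left out for its low counts), as the fit with its SE as a bar (red where past the threshold), beside the within-mouse log2 differences as points. Wnt4, Wnt10a and Znrf3 had all 3 mice on the same side of 0, Znrf3 by -0.017 in mouse 1, while Axin2 was raised in 2 of 3 mice.

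Ordered by mean CPM over the 6 libraries, the members ran Lgr6 (188), Wnt10a (86.5), Wnt4 (85.9), Lgr4 (75.9), Wnt7b (42.0), Axin2 (23.6), Znrf3 (12.2), Rnf43 (4.98), Lgr5 (1.77) and Nkd1 (0.139). The pooled order of Wnt10a, Wnt4 and Lgr4 did not hold on both days. Wnt4 was below Wnt10a and below Lgr4 in 3 of 3 mice at day 5 and above both in 3 of 3 mice at day 7. The ranges of Wnt4 and Wnt10a were apart on each day, whereas those of Wnt4 and Lgr4 overlapped at day 5. Lgr6 was above Wnt10a, Lgr4 above Wnt7b, and Znrf3 above Rnf43 in 6 of 6 libraries. Wnt7b was above Axin2, Axin2 above Znrf3, and Rnf43 above Lgr5 in 5 of 6. Day 7 mouse 3 was the lowest day 7 library for Axin2, Lgr4, Lgr5, Znrf3 and Rnf43, or 5 of the 9 members that averaged 1 CPM or more, while 38.8% of 9634 expressed genes were lowest there. Day 5 mouse 2 was the lowest of its day for 6 of the 9, against 36.0% of genes.

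The wider pathway was described with 114 further Wnt genes in 8 lists. Of these, 82 were tested, and 7 were higher and 1 lower at day 7, or 9.76% against the 12.0% of all genes. The median log2 fold change was 0.21, beside -0.0073 over all genes tested. It includes genes near the detection limit with 0 counts at day 5, such as Trabd2b and Wnt3a, which had at most 3 counts per library at day 7. Of the other Wnt ligands, 1 of 7 tested was higher. This was Wnt5a, the main ligand of the β-catenin-independent branch, at 47.8, 60.3 and 51.2 CPM at day 5 and 149, 88.9 and 80.3 CPM at day 7. All day 7 libraries were above day 5 (log2 fold change 1.00 ± 0.24, adjusted p = 0.00896), although the adjusted p rose to 0.0783 and 0.0712 without day 5 mouse 1 or 3. As a share of all Wnt ligand counts, Wnt4 went from 24.8% ± 2.22 to 31.2% ± 1.80 and Wnt10a from 37.5% ± 3.23 to 21.4% ± 3.57 (SD, n = 3).

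For secretion and R-spondins, 0 of 2 genes tested passed, and Rspo1, Rspo2, Rspo3 and Rspo4 had no count in any library. Wls, which carries Wnt proteins to the cell surface, measured 220, 207 and 235 CPM at day 5 and 323, 337 and 323 CPM at day 7. Its day 7 libraries were all above day 5 with an adjusted p of 0.0431, but its log2 fold change of 0.57 ± 0.18 was under the limit. Of 16 Wnt receptors 0 passed either way, and the most abundant, the co-receptor Ryk, had a log2 fold change of 0.26 ± 0.23.

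Of 7 secreted Wnt inhibitors tested, 2 were higher. Sostdc1, an antagonist of BMP that also binds LRP co-receptors, measured 58.2, 157 and 151 CPM at day 5 and 640, 367 and 320 CPM at day 7 (log2 fold change 1.86 ± 0.31, adjusted p = 0.000669). Sfrp1, which binds Wnt proteins outside the cell, measured 8.66, 9.54 and 10.8 CPM against 28.4, 27.8 and 39.2 CPM (1.70 ± 0.28, adjusted p = 0.000474). In both genes every day 7 library was above every day 5 library. The inhibitors Dkk1, Dkk2, Dkk4, Sfrp2, Sfrp4, Sfrp5, Frzb, Wif1 and Sost had no count in any library.

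No cytoplasmic transducer (0 of 15) and no nuclear effector (0 of 12) passed in either direction. Ctnnb1, which encodes β-catenin, averaged 1056 ± 30.4 CPM at day 5 and 1108 ± 188 CPM at day 7 (SD, n = 3), with a log2 fold change of 0.069 ± 0.19. Ctnnbip1, an inhibitor of β-catenin binding to TCF factors, had a log2 fold change of -0.022 ± 0.18. Lef1, listed with the nuclear effectors, had no count in any library. Of the 18 other response genes listed, 13 had counts and 5 had none in any library, Sp5 and Apcdd1 among the 5.

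Among 13 other response genes tested, 2 were higher. Tnfrsf19, a receptor of the TNF receptor family known as a Wnt target, measured 2.47, 3.51 and 2.52 CPM at day 5 and 9.97, 11.8 and 10.3 CPM at day 7 (log2 fold change 1.92 ± 0.38, adjusted p = 0.00265). Ephb3, an ephrin receptor, measured 33.4, 38.2 and 33.5 CPM against 36.4, 84.0 and 91.5 CPM (1.01 ± 0.28, adjusted p = 0.0235). Ephb3 overlapped between days through mouse 1, whose day 7 level stayed low, while Axin2 stayed low in mouse 3. Its call was lost with limma voom (0.90, adjusted p = 0.0891), without day 5 mouse 1, 2 or 3 (adjusted p = 0.116, 0.0978 and 0.121) and without day 7 mouse 2 (0.131). The abundant Ccnd1, a cyclin of G1, did not pass at -0.26 ± 0.19.

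Of 10 genes of the planar polarity branch tested, 2 were higher and 1 was lower. Prickle1 (log2 fold change 1.42 ± 0.35, adjusted p = 0.0119) and Ankrd6 (1.19 ± 0.30, adjusted p = 0.0148) were higher. Celsr1, an atypical cadherin of the polarity complex, was lower at 24.6, 20.1 and 12.2 CPM at day 7 against 43.3, 36.2 and 39.3 CPM at day 5 (-1.05 ± 0.26, adjusted p = 0.0132). Omission of day 5 mouse 1, 2 or 3 took the adjusted p of Celsr1 to 0.0878, 0.0574 and 0.0698 and that of Ankrd6 to 0.113, 0.0519 and 0.0755. Celsr1 was at 0.0501 without day 7 mouse 2, and Prickle1 at 0.0588 and 0.114 without day 5 mouse 1 or 3. Vangl1, the most abundant of the list, had a log2 fold change of 0.22 ± 0.21.

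**Figure D5:**
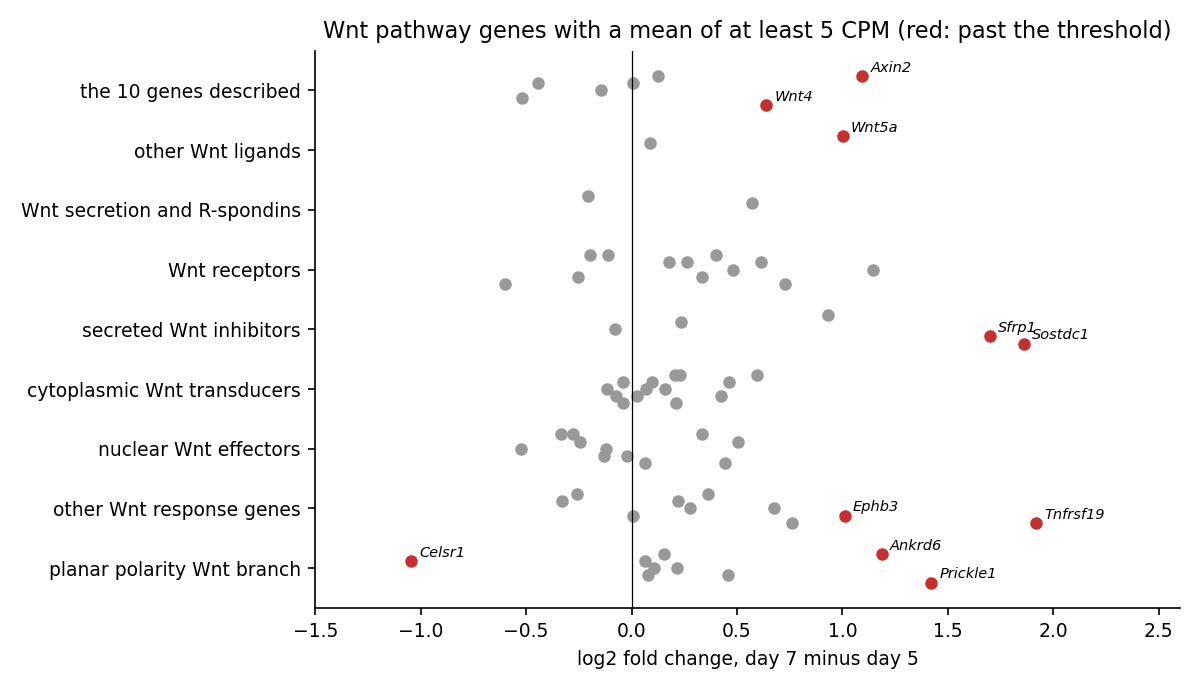
Log2 fold change from day 5 to day 7 for 72 genes whose mean reached 5 CPM, 7 of them members, by pathway list, with genes past the threshold marked. Sostdc1, Sfrp1 and Tnfrsf19 lay highest and Celsr1 was the only listed gene past the threshold on the lower side.

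The genes whose levels followed Axin2 most closely over the 6 libraries, by Pearson's r of log2 CPM among 8001 genes, were Lhfpl6 (0.997), Arln (0.996) and Vegfa (0.992). Vegfa, a growth factor for blood vessels, measured 68.5, 57.2 and 70.6 CPM at day 5 and 238, 174 and 80.3 CPM at day 7, and its lowest day 7 value was again in mouse 3. The closest to Lgr6 were Gclm (0.965), Pank1 (0.963) and Pdk3 (0.960), whose log2 fold changes lay between -0.16 and -0.042. These likenesses rest on 6 libraries and on the same scaling, and are given as a description.

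Markers of other cell states differed between the days as well. Cycling markers summed to 1799 to 2103 CPM at day 5 and 703 to 1056 CPM at day 7, with 8 of 8 genes lower. Cornified squamous markers summed to 877 to 1126 CPM and to 2045 to 3797 CPM, with 10 of 15 higher and 0 lower. Luminal duct markers summed to 1602 to 1965 CPM and to 2070 to 3032 CPM, with 4 of 8 higher and 1 lower. Of the basal duct markers 1 of 8 was higher, and of the acinar markers 1 of 4, which was Pip. Endothelial markers (10.4 to 12.4 against 13.5 to 25.9 CPM, 0 of 4) were low on both days and were mostly Egfl7. Macrophage markers (0.360 to 1.65 against 3.45 to 6.85 CPM, 1 of 1 higher) were low on both days and were almost all Cd68. The macrophage markers Csf1r, Adgre1, Lyz2, C1qa, C1qb and Mrc1 had no count in any library. Nerve and glia markers were low too (11.2 to 15.6 against 5.38 to 9.03 CPM, 1 of 6 lower), and fibroblast markers had 0 of 5 past the threshold. Myoepithelial markers (6153 to 9223 against 4125 to 8056 CPM, 1 of 5 higher) were mostly Krt14, which basal cells share. The part of these states in the levels of Axin2, Wnt4 and Wnt10a was not tested.

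Counting could touch some members. Of the 10 genes, 8 cross exons of other genes lying on the opposite strand and 0 cross any on the same strand, and whether reads were counted by strand is not given in the sources used here. Part of the last 500 bases of Wnt4 also matches other genes over at least 50 bases at 95% identity or more, so its counts carry that uncertainty.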

How the data were processed

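Bulk 3′ RNA-seq (QuantSeq) was analysed from 6 mSGO libraries, 3 per day. The deposited values were whole-number read counts per Ensembl gene from the authors' alignment to GRCm39, with aligner, counter and strand setting not given in the sources used here. Entries that named no gene (9.12 to 14.4% of reads) were left out. Symbols and positions came from GENCODE vM39. A gene was kept when 2 or more libraries held 1 count or more for it, after the study's methods. Day 7 was compared with day 5 using edgeR 4.0.16 in R 4.3.3 (two-sided quasi-likelihood F test, TMM scaling, Benjamini-Hochberg adjustment over 15792 genes), and a gene passed at adjusted p under 0.05 with absolute log2 fold change over 0.6. The SE was derived from the F statistic. The method was tested on simulated counts.

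Named were the 10 members, the most abundant gene of each Wnt list and up to 2 genes per direction past the threshold at 5 CPM or more, the 3 genes most like Axin2 and Lgr6 (mean of at least 10 CPM, prior count 2), and cell type markers. Other names were chosen after their values were seen, as was the search within 1000 bases of the start. The members and lists were chosen with earlier results of these data known. The loricrin marker was not matched and was left out. The labels give a mouse number, so same-numbered libraries came from 1 mouse. Their deviations from the day means correlated at 0.14, -0.10 and 0.16 over 8172 genes, and the mouse was used as a block in an alternative. Other alternatives were DESeq2 1.42.0, limma 3.58.1 voom, a test against the fold limit (glmTreat), other scalings and filters, and omission of each library.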

Additional observations from a re-analysis of the deposited data

How the results depend on the processing

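The number of members past the threshold was 2, and stayed at 2 with DESeq2, with other size factors, without the filter and with the replicate block. It was 1 on library totals only, with edgeR's own filter, with a mean count of at least 10 and with voom, and 0 with glmTreat, which tests against the fold limit itself. With 1 library left out it ran from 0 to 2. It was 0 without day 5 replicate 1, 2 or 3 or day 7 replicate 2, 2 without day 7 replicate 3, and 1 without day 7 replicate 1, where Znrf3 alone was lower. Of the 8 further Wnt genes past the threshold, glmTreat left 3 (Sostdc1, Sfrp1 and Tnfrsf19), and the range with 1 library left out was 3 to 13, the omission of day 5 replicate 1, 2 or 3 giving 3, 5 or 3 and that of day 7 replicate 3 giving 13. Over all genes the count of 1901 was 622 with glmTreat and 797 to 2576 with 1 library left out, the same 3 day 5 omissions giving 892, 797 or 890 and that of day 7 replicate 2 giving 1045. Library totals only gave 950 higher and 1008 lower, against 1140 and 761. With the mouse as the replicate block the counts were 11 further Wnt genes and 2340 genes in all, and no call of a named member changed. The cause of these differences was not tested.

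Axin2 kept its direction in every alternative, with an adjusted p of 0.00191 to 0.223 over all libraries, and lost its call with edgeR's own filter, a mean count of at least 10, voom and glmTreat. Of 164 alternative values for the members, 138 kept their side of the threshold and direction, 16 lost the call, 1 gained it and 9 changed sign. Only Axin2 and Wnt4 had a call to lose, so all 16 losses were theirs, over 17 settings each. Most of the 138 values belonged to members that were not past the threshold in the main fit. Lgr4 changed sign with upper quartile scaling (-0.033), library totals only (-0.077), voom (-0.011) and the replicate block (-0.021), and ran from -0.19 to 0.19 with 1 library left out. The range with 1 library left out also crossed 0 for Lgr6 (-0.37 to 0.043), Ctnnb1 (-0.0081 to 0.20), Ctnnbip1 (-0.074 to 0.029), Nkd2 (-0.12 to 0.41) and Vangl1 (-0.010 to 0.39). Ctnnb1 was at -0.021 on library totals only. None of these genes was past the threshold. The difference in the log2 ratio of Lgr6 to Lgr4 ran from -0.42 to 0.25 with 1 library left out, while that of Wnt4 to Wnt10a stayed between 1.06 and 1.29 and that of Axin2 to Axin1 between 0.80 and 1.46. The ratio alternatives were added after seeing the data, and the direction for Wnt4 to Wnt10a was fixed by the choice of that pair. Depth limited Nkd1 and Lgr5, whose counts per library did not exceed 1 and 8. It also limited Rnf43, which had 3 counts in day 7 replicate 3.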

Other observations

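Values are given for 4 pathway genes outside the naming rule that did not pass the test and were picked after their values were seen. Fzd4, a Frizzled receptor also used by norrin, averaged 4.31 ± 1.56 CPM at day 5 and 9.77 ± 0.578 CPM at day 7 (SD, n = 3), with a log2 fold change of 1.15 ± 0.37 and an edgeR adjusted p of 0.0521. Its adjusted p lay on either side of the limit by setting. It was 0.0238 with the mouse as a replicate block, 0.0361 with no filter, 0.0431 with edgeR's own filter, 0.0458 with a mean count of at least 10, 0.125 with DESeq2 and 0.257 with glmTreat, and 0.0332 to 0.228 with 1 library left out. Fzd6, a Frizzled of the planar polarity branch, averaged 33.0 ± 2.67 and 21.4 ± 10.1 CPM (-0.60 ± 0.30, adjusted p = 0.222). Its day 7 levels were 28.4, 26.0 and 9.79 CPM, and without day 7 replicate 3 the log2 fold change was -0.28. Of the nuclear genes, Tcf7l2, a TCF factor, averaged 55.7 ± 4.22 and 38.7 ± 6.33 CPM and was lower in 3 of 3 mice (-0.52 ± 0.21, adjusted p = 0.123), and passed without day 7 replicate 1 (-0.67). Bcl9l, a β-catenin co-activator, averaged 113 ± 7.39 and 161 ± 2.84 CPM and was higher in 3 of 3 mice (0.51 ± 0.18, adjusted p = 0.0787).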
